A study of Mus musculus with 12 samples.

Results

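The 10 core genes of the circadian clock (Arntl, Clock, Per1, Per2, Per3, Cry1, Cry2, Nr1d1, Nr1d2 and Dbp) were followed in the basal forebrain and cortex of 6 mice. They were taken by name: every probe whose gene name in the scanner files is one of these symbols was used. That gave 10 of the 37306 gene names on the array and 25 of its 56568 probes. The brightest probe on average stood for its gene, and all 10 of those probes were well above background on all 12 arrays, so every gene entered every comparison. A level is a probe's log2 intensity from which the array's own 75th percentile was subtracted. A level of 0 is therefore that percentile, and levels of different probes cannot be ranked against each other.

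The circadian clock is a feedback loop of transcription. ARNTL (also called BMAL1) and CLOCK bind E-box sequences as a pair and drive the Per, Cry, Nr1d and Dbp genes. The PER and CRY proteins return to block that pair, and the NR1D (REV-ERB) receptors repress Arntl, so in most tissues Arntl RNA peaks when Dbp and Nr1d RNA is low. The loop runs in forebrain tissue as well as in the suprachiasmatic nucleus, the pacemaker of the hypothalamus, and Per1 also responds to neuronal activity and to glucocorticoids.

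The mice belong to a study of presenilin loss, in which 1 genotype carried Cre under Chat, the gene of the acetylcholine-synthesising enzyme. DKO mice were ChatCre PS1flox/flox PS2-/-. Con mice were Cre- PS1flox/flox PS2+/-, so both groups carried the floxed allele and the controls had a single working copy of PS2. There were 3 mice per genotype, 2 months old, male by label and killed by cervical dislocation, and both regions came from every animal. Cre acts in Chat-expressing cells, so the floxed gene is deleted in few of the cells of either dissection, whereas PS2 is null in all cells. None of the sources used here gives the hour at which tissue was taken. Total RNA of a dissected region was labelled with Cy3, and fewer cells of a type cannot be told apart from less RNA per cell in such samples.

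The share of probes well above background was 68.9% on the lowest array. Slide 1 carried the basal forebrain of all 6 mice together with cortex from DKO mice 1 and 2, and slide 2 carried the other 4 cortex arrays. Psen2, which encodes the PS2 protein, matched the genotype labels: it lay between -1.86 and -1.25 on the DKO arrays and between 0.25 and 0.50 on the Con arrays. The dissections carried their markers. The summed level of 9 cholinergic genes (log2 of the sum of linear levels) was at least 5.28 in basal forebrain and at most 2.41 in cortex, and that of 8 genes of cortical excitatory neurons was 3.12 to 4.09 and 5.61 to 5.83. Xist was well above background in DKO mice 1 and 3, and Ddx3y, Eif2s3y and Uty were not, so by these genes the mice go against the label male. Kdm5d, the other sex gene measured, did not separate them and was well above background on every array. In basal forebrain and cortex Kdm5d read -0.68 and -0.27 in DKO mouse 1, and -1.20 and 0.04 in DKO mouse 3. The Con mice held -1.06 to -0.49 in basal forebrain and 0.00 to 0.15 in cortex. Why Kdm5d differed from the other sex genes was not tested. Blood genes were also higher in DKO, with 6 of 6 measured erythroid and 7 of 9 leukocyte genes passing limma over both regions: the summed level of the erythroid genes was 8.13 to 9.54 in DKO and 7.05 to 7.55 in Con, and that of the leukocyte genes was 2.29 to 3.92 against -0.05 to 0.92. The part of the sex and blood differences in the genotype comparisons below was not tested.

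Among the activators, Arntl has 3 probes, the brightest of them at chromosome 7, 120456978 to 120457037 of mm9. Basal forebrain levels of Arntl were 0.59, 0.69 and 0.60 for DKO mice 1, 2 and 3 and 0.52, 0.58 and 1.04 for Con mice 1, 2 and 3, the order kept for every gene. Cortex levels were 1.16, 1.08 and 1.19 for DKO and 1.03, 0.95 and 1.40 for Con. Con mouse 3 was the highest mouse in both regions, and the genotypes overlapped in both. Clock (chromosome 5, 76639992 to 76640051) read 2.41, 2.28 and 2.34 for basal forebrain of DKO mice, and 2.30, 2.31 and 2.32 for that of Con mice. Its cortex levels were 2.66, 2.55 and 2.40 in DKO and 2.35, 2.40 and 2.31 in Con. The basal forebrain values of all 6 mice lay within 0.13, while in cortex the DKO arrays of mice 1 and 2, both on slide 1, lay above the rest.

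Of the Period genes, whose proteins form the repressor complex, Per1 (chromosome 11, 68923364 to 68923423) differed more between mice than between genotypes. It read 3.77, 4.12 and 4.12 for basal forebrain of DKO mice, and 3.87, 3.78 and 4.27 for that of Con mice. In cortex the values were 4.04, 4.59 and 4.54 in DKO and 4.19, 4.16 and 4.80 in Con. The same 3 mice, DKO 2, DKO 3 and Con 3, were the high ones in both regions. Per2 (chromosome 1, 93312595 to 93312654) read 1.33, 1.72 and 1.32 for basal forebrain of DKO mice, and 1.82, 1.70 and 1.50 for that of Con mice. Cortex gave 1.67, 1.85 and 1.32 in DKO and 1.93, 1.88 and 1.75 in Con. DKO mice 1 and 3, those with Xist signal, were the lowest in each region, and DKO mouse 2 lay among the controls. Per3 (chromosome 4, 150378473 to 150378532) read -0.73, -0.21 and -0.28 for basal forebrain of DKO mice, and -0.09, 0.06 and -0.56 for that of Con mice. The cortex arrays held -0.29, -0.02 and -0.99 for DKO and -0.73, -0.63 and -0.91 for Con. The 2 high cortex arrays of Per3 were again the pair on slide 1.

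Of the cryptochromes, the partners of the PER proteins, Cry1 (chromosome 10, 84594731 to 84594790) read -2.85, -2.91 and -3.09 for basal forebrain of DKO mice, and -3.05, -2.96 and -3.10 for that of Con mice. Cortex gave -3.49, -3.18 and -2.86 in DKO and -2.86, -3.00 and -2.78 in Con, so the 2 low cortex arrays of Cry1 were those on slide 1. Cry2 (chromosome 2, 92243807 to 92243866) read 4.79, 4.60 and 4.64 for basal forebrain of DKO mice, and 4.69, 4.69 and 4.71 for that of Con mice. Its cortex levels were 4.93, 5.20 and 4.96 in DKO and 4.98, 5.01 and 4.91 in Con. Every cortex array of Cry2 lay above every basal forebrain array.

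Nr1d1 and Nr1d2 encode the REV-ERB receptors of the second loop. Nr1d1, which has a single probe (chromosome 11, 98630526 to 98631028), read 0.25, -0.23 and -0.38 for basal forebrain of DKO mice, and -0.07, 0.09 and -0.03 for that of Con mice. The cortex arrays held 0.91, 0.69 and 0.13 for DKO and 0.60, 0.51 and 0.18 for Con. The mice numbered 3 of both genotypes were the low ones in cortex. Nr1d2 (chromosome 14, 19036859 to 19036918) read 2.74, 2.77 and 2.75 for basal forebrain of DKO mice, and 2.91, 2.89 and 2.49 for that of Con mice. Cortex gave 2.93, 3.00 and 3.09 in DKO and 3.34, 3.34 and 2.95 in Con. Con mouse 3 stood below the other Con mice in each region, by more than the DKO mice differed among themselves. Dbp (chromosome 7, 52965461 to 52965520), a PAR bZIP factor that carries the rhythm to output genes, read 5.24, 5.04 and 5.03 for basal forebrain of DKO mice, and 5.20, 5.49 and 5.06 for that of Con mice. It read 5.07, 5.12 and 4.69 in DKO cortex and 5.23, 5.34 and 4.55 in Con cortex. The mouse numbered 3 of each genotype had the lowest Dbp of its genotype in each region.

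**Figure D1:**
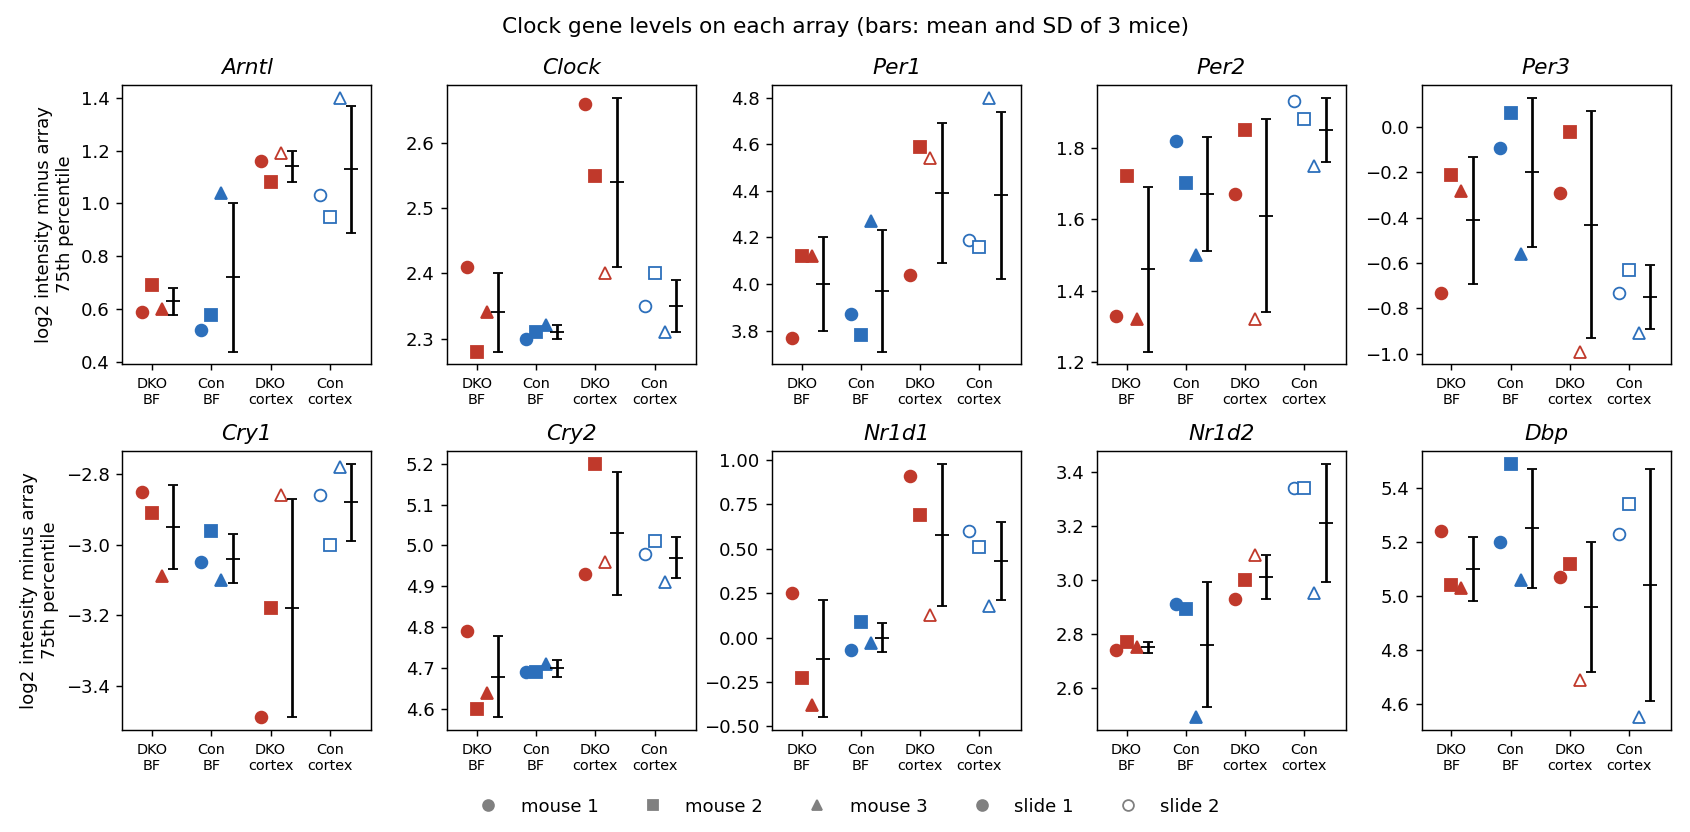
Level of each clock gene (vertical axis, log2 intensity minus the array's 75th percentile, separate scale per gene) on the 12 arrays, by genotype and region. Symbols give the mouse, filled symbols slide 1 and open symbols slide 2, and black bars the mean and SD of 3 mice. The genotypes overlap for every gene in basal forebrain, and all 6 cortex arrays of Cry2 (4.91 to 5.20) lie above its basal forebrain arrays (4.60 to 4.79).

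The first question was whether the presenilin genotype changed the clock genes. No member passed the test of DKO against Con. In basal forebrain 0 of 10 members passed limma with an adjusted p under 0.05 (8 of 26102 genes did, 0.0306%), and 0 had an unadjusted p under 0.05, which 4.39% of all genes had. In cortex 0 of 10 passed (3 of 25798 genes, 0.0116%) and 1, Clock, had an unadjusted p under 0.05, which 18.9% of all genes had. Over both regions, with the 2 arrays of a mouse averaged, 0 of 10 passed (42 of 26959 genes, 0.156%) and 0 had an unadjusted p under 0.05 (10.7% of genes). The median difference of the members was -0.05 in basal forebrain, 0.01 in cortex and -0.01 over both, where all genes had 0.00, -0.05 and -0.02. The median size of a member's difference, 0.09 and 0.16 in the 2 regions, was near that of all genes, 0.10 and 0.17.

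Over both regions Per2 had the most negative difference of the members. Its level over both regions was 1.53 (SD 0.23) in DKO and 1.76 (SD 0.13, n = 3 mice per genotype) in Con, a log2 difference of -0.23 with a 95% interval of -0.50 to 0.04 and a limma adjusted p of 0.504. In basal forebrain Per2 differed by -0.22 (interval -0.54 to 0.11, limma adjusted p = 0.973) and in cortex by -0.24 (interval -0.55 to 0.07, limma adjusted p = 0.322). The dimmer Per2 probe differed the same way, by -0.38 in basal forebrain and -0.53 in cortex, with limma adjusted p of 0.982 and 0.249 over all probes. The low values were those of the mice with Xist signal, and DKO mouse 2 lay at 1.72 and 1.85, inside the Con range of each region. On slide 2 alone, where DKO mouse 3 is the only DKO array, Per2 differed by -0.53.

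Clock was the single member whose cortex arrays did not overlap between genotypes, where 22.4% of all genes did not overlap, and its nearest arrays, DKO mouse 3 and Con mouse 2, both round to 2.40. Clock stood at 2.54 (SD 0.13) in DKO and 2.35 (SD 0.04, n = 3 per genotype) in Con, a difference of 0.18 (interval 0.00 to 0.37, limma adjusted p = 0.265). A second Clock probe went the other way, by -0.28 (limma adjusted p = 0.254 over all probes), and so did another, by -0.24. Over both regions Clock was also the single member without overlap (16.7% of genes), at 2.44 (SD 0.09) and 2.33 (SD 0.02). In basal forebrain 0 of 10 members had groups that did not overlap, against 9.95% of genes. On slide 2 alone, where DKO mouse 3 can be set against the 3 Con mice, the Clock difference was 0.05.

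Slide moved with genotype in cortex. Per3 differed by 0.32 and Cry1 by -0.30 in cortex, and on slide 2 alone by -0.24 and 0.02. With DKO mouse 3 left out, the cortex comparison sets slide 1 against slide 2 completely. In that comparison 9759 of 26082 genes (37.4%) and 3 members passed limma: Clock at 0.25 (limma adjusted p = 0.0153), Per3 at 0.60 (limma adjusted p = 0.00833) and Cry1 at -0.46 (limma adjusted p = 0.0420). The other Cry1 probe differed by 0.30 in the full cortex comparison, opposite to the brightest one. Genotype and slide cannot be told apart there.

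For the remaining members the intervals bound the difference. Arntl differed by -0.09 in basal forebrain (interval -0.43 to 0.24) and 0.02 in cortex (interval -0.27 to 0.30). Per1 differed by 0.03 (interval -0.34 to 0.40) and 0.01 (interval -0.46 to 0.48). Cry2 differed by -0.02 (interval -0.20 to 0.16) and 0.07 (interval -0.12 to 0.25). Nr1d1 differed by -0.12 and 0.14, Nr1d2 by -0.01 and -0.20, and Dbp by -0.15 and -0.08 in the 2 regions, with overlapping groups throughout.

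**Figure D2:**
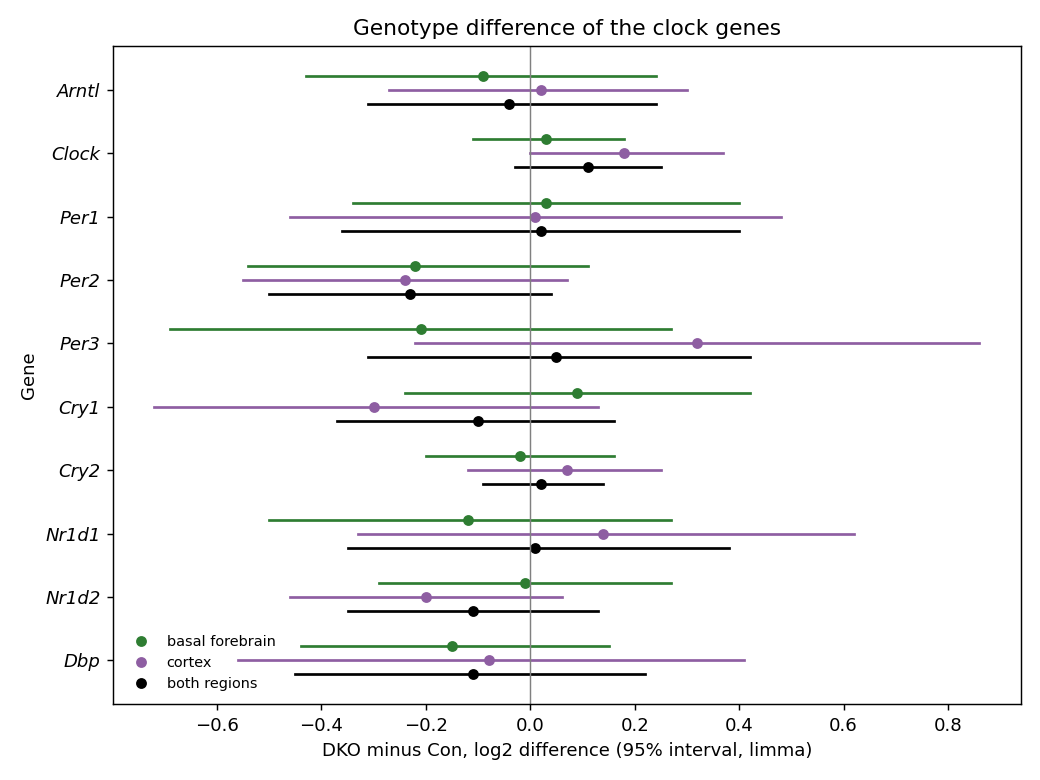
Difference DKO minus Con of each clock gene (horizontal axis, log2) with its 95% interval from limma, in basal forebrain, in cortex and over both regions, 3 mice per genotype. The points run from -0.30 (Cry1, cortex) to 0.32 (Per3, cortex), and every interval includes 0 except that of Clock in cortex, whose lower end rounds to 0.00.

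The genotype difference was then compared between the regions by an interaction term (that in cortex subtracted from that in basal forebrain). Of all 26959 genes 0 passed (0%), of 10 members 0 passed, and no member had an unadjusted p under 0.05, which 8.36% of all genes had. The most negative interaction was that of Per3, -0.53 (interval -1.26 to 0.20, limma adjusted p = 0.588), and the most positive that of Cry1, 0.39 (interval -0.12 to 0.89, limma adjusted p = 0.579). Both are genes whose cortex values moved with the slide.

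The wider clock gave the same picture for genotype. Of 30 other clock genes (nuclear receptors, PAR bZIP factors, kinases, ubiquitin ligases) 0 passed in basal forebrain, cortex or both regions. By limma 2, 4 and 4 had an unadjusted p under 0.05, as had 4.39%, 18.9% and 10.7% of all genes. Rorb, a nuclear receptor that activates Arntl and also marks cortical layer 4 neurons, had the smallest p in basal forebrain, with a difference of 0.76 (SE 0.22, limma adjusted p = 0.973). Its probe stood there at -3.28 in DKO and -4.05 in Con. In Con it did not differ between the regions (-0.02, limma adjusted p = 0.963), whereas 7 of 8 cortical excitatory genes were lower in basal forebrain. Hlf, a PAR bZIP factor related to Dbp, differed by 0.99 in cortex (SE 0.29, limma adjusted p = 0.261), where it stood at 2.80 and 3.05 on the DKO arrays of slide 1, at 1.74 on that of slide 2 and at 1.52 to 1.58 in Con. Bhlhe40, an E-box repressor, differed by -0.57 in cortex (limma adjusted p = 0.261). Of 20 measured output genes of the clock 0 passed. Klf10, a zinc finger repressor under clock control, differed by -0.71 over both regions (SE 0.16, limma adjusted p = 0.294), with groups that did not overlap in basal forebrain, at 0.08 to 0.21 in DKO and 0.53 to 1.04 in Con.

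Per1 can also follow neuronal activity and stress hormones, so those programmes were counted. Of 19 immediate early genes 0 passed in any genotype comparison, and Egr3 had the smallest p in each, with -0.32 in basal forebrain (limma adjusted p = 0.973), -0.36 in cortex (0.261) and -0.34 over both (SE 0.10, limma adjusted p = 0.412). Of 15 glucocorticoid-responsive genes 0 passed, and their median difference was 0.25 in basal forebrain and 0.36 in cortex, where all genes had 0.00 and -0.05. By limma 3, 6 and 6 had an unadjusted p under 0.05 in basal forebrain, cortex and over both, against 4.39%, 18.9% and 10.7% of all genes. Sult1a1 differed by 0.98 in basal forebrain and 1.47 in cortex (limma adjusted p = 0.973 and 0.261), with groups that did not overlap. Lcn2, a lipocalin that neutrophils also carry, differed by 3.02 in basal forebrain (limma adjusted p = 0.453), 3.28 in cortex (0.232) and 3.15 over both (SE 0.44, limma adjusted p = 0.0527). Per1 itself differed by 0.02 over both regions.

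The second comparison set basal forebrain against cortex in the same mice. Clock genes that passed were lower in basal forebrain. In Con mice 3 of 10 members were lower and 0 higher by limma, where 30.0% of all genes were lower, 18.4% higher and 48.4% passed in either direction. In DKO mice 4 of 10 were lower and 0 higher, where 19.8% of all genes were lower, 18.5% higher and 38.3% passed. The Con count is the same as the background share, and the DKO count is 2 members above it. The median difference of the members was -0.23 in both genotypes, and that of all genes was -0.09 in Con and -0.04 in DKO.

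Arntl and Cry2 passed in both genotypes with the brightest probe. With the mean of all probes of a gene neither call held: Arntl differed by -0.19 in Con and -0.31 in DKO (limma adjusted p = 0.312 and 0.121), and Cry2 turned to 0.60 and 0.65. By its brightest probe Arntl stood at 0.72 (SD 0.28) in basal forebrain and 1.13 (SD 0.24) in cortex of Con mice, a difference of -0.41 (SE 0.14, 1.33-fold lower, limma adjusted p = 0.0295, n = 3 per region). In DKO mice the levels were 0.63 (SD 0.05) and 1.14 (SD 0.06), a difference of -0.52 (SE 0.14, 1.43-fold lower, limma adjusted p = 0.0120). Within mice the Arntl difference ran from -0.59 to -0.36, lower in basal forebrain in 6 of 6. Cry2 differed by -0.27 in Con (SE 0.08, limma adjusted p = 0.0157) and by -0.35 in DKO (SE 0.08, limma adjusted p = 0.00450), and was lower in 6 of 6 mice.

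The REV-ERB genes passed in 1 genotype each. Nr1d2 was lower in Con basal forebrain, 2.76 (SD 0.23) against 3.21 (SD 0.22), a difference of -0.45 (SE 0.12, 1.36-fold, limma adjusted p = 0.0106), and it differed by -0.26 in DKO (limma adjusted p = 0.117). Nr1d1 was lower in DKO basal forebrain, -0.12 (SD 0.33) against 0.58 (SD 0.40), a difference of -0.70 (SE 0.20, 1.62-fold, limma adjusted p = 0.0164), and it differed by -0.44 in Con (limma adjusted p = 0.0885). The interaction of neither passed (0.19 for Nr1d2 and -0.26 for Nr1d1, limma adjusted p = 0.672 and 0.721), so the genotypes are not shown to differ. Clock passed in DKO alone, at -0.19 (SE 0.07, limma adjusted p = 0.0496), a call lost with normexp correction, quantile or the authors' normalization, no filter or no trend.

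With the mouse as a block, which pairs the 2 regions of an animal, 6 members passed in Con (48.9% of all genes) and 5 in DKO (38.6%). Per1 joined in both, at -0.41 in Con (limma adjusted p = 0.00333) and -0.39 in DKO (limma adjusted p = 0.00440). Nr1d1 (limma adjusted p = 0.0144) and Per3 (0.56 higher, limma adjusted p = 0.0433) joined in Con, and Nr1d2 joined in DKO (limma adjusted p = 0.0144), while Clock dropped out there (limma adjusted p = 0.0578). Per1, Per2, Nr1d1 and Nr1d2, like Arntl and Cry2, were lower in basal forebrain in 6 of 6 mice, as were 27.7% of 23789 genes, although the Per2 difference of DKO mouse 3 rounds to 0.00. Dbp went the other way in 4 of 6 mice, from -0.08 to 0.51, and did not pass in either genotype.

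**Figure D3:**
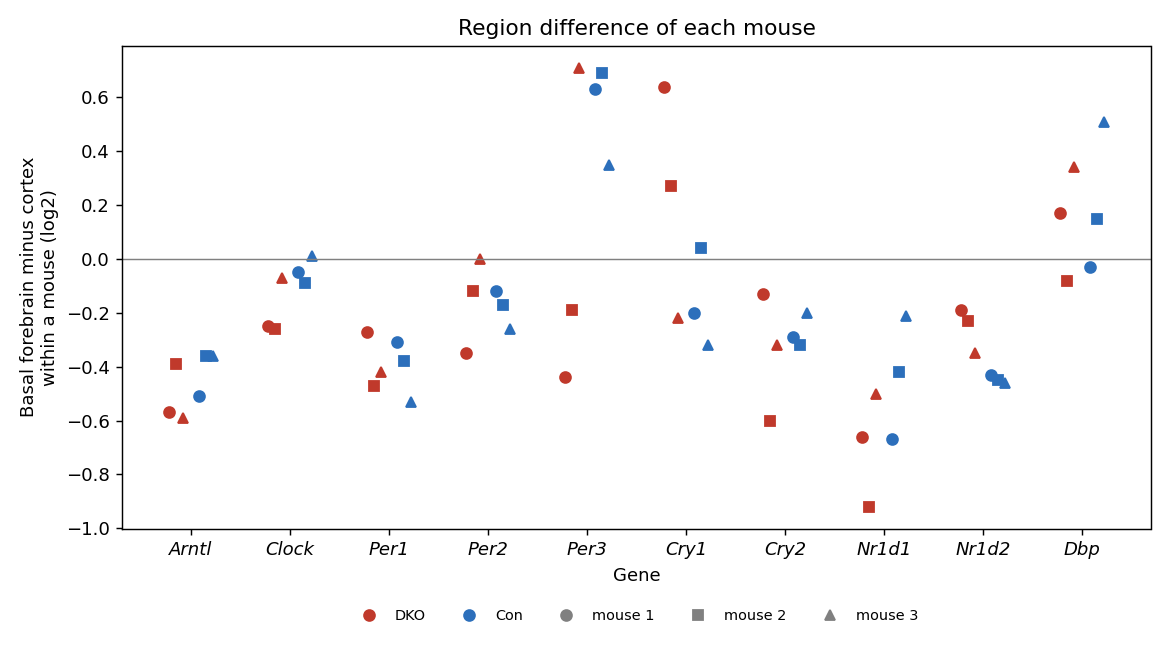
Basal forebrain minus cortex within each of the 6 mice (vertical axis, log2) for each clock gene, red for DKO and blue for Con, symbols for the mouse number. Arntl (-0.59 to -0.36), Per1 (-0.53 to -0.27), Cry2, Nr1d1 and Nr1d2 lie below 0 in all 6 mice, while Per3, Cry1 and Dbp straddle it.

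The region calls have limits. All Con basal forebrain arrays were on slide 1 and all Con cortex arrays on slide 2, so region and slide cannot be told apart in Con; in DKO, slide 1 alone gave the same 4 members (29.9% of all genes passed there). The probe mattered too: with the mean of all probes of a gene, Per2 and Nr1d2 passed in Con and Per2 and Nr1d1 in DKO, where 46.2% and 38.0% of all genes passed. The 2 dimmer Cry2 probes, annotated in the files to other transcripts of the gene, differed the other way, by 0.91 and 1.15 in Con (limma adjusted p = 0.0779 and 0.0201 over all probes) and by 1.13 and 1.18 in DKO (limma adjusted p = 0.0420 and 0.0213). A Clock probe annotated to another transcript was likewise 0.79 and 1.16 higher, another Clock probe was lower in both (-0.58 in Con and -0.31 in DKO, limma adjusted p = 0.00125 and 0.0337 over all probes), and the mean of the Clock probes in DKO was 0.05. All 3 Nr1d2 probes were lower in Con basal forebrain, at -0.45, -0.45 and -0.53.

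Markers of the anterior hypothalamus and suprachiasmatic nucleus moved with region. The summed level of 10 such genes was 3.70 to 6.48 in basal forebrain and 3.07 to 3.40 in cortex. By limma 6 of 10 were higher in basal forebrain in each genotype, 2 were lower in Con and 1 was lower in DKO, while Six6 was below background on all cortex arrays. Prok2, a secreted output of the suprachiasmatic clock, was 15.2-fold higher in Con basal forebrain (log2 difference 3.92, SE 0.19, limma adjusted p = 6.26e-08). Striatal markers were higher in basal forebrain in 9 of 9 genes in each genotype, with summed levels of 8.66 to 9.17 against 6.92 to 7.48. Choroid plexus markers went the other way: of 10 genes 7 were lower and 1 higher in Con basal forebrain, and 9 were lower and 1 higher in DKO, with summed levels of 3.00 to 3.32 against 5.78 to 6.93. The part of these markers in the region differences of the clock genes was not tested. Of the 30 other clock genes 5 were higher and 13 lower in Con basal forebrain, and 4 and 12 in DKO. Of all genes 18.4% were higher and 30.0% lower in Con, and 18.5% and 19.8% in DKO. Bhlhe40 differed by -1.97 in Con and -1.44 in DKO, Csnk1e, a kinase that phosphorylates PER, differed by -1.01 and -0.71, and Id2, an inhibitor of bHLH factors, by -1.24 and -1.05. Prkaa2, a catalytic subunit of the energy sensor AMPK, differed by -0.88 and -0.93, and Ncor1, a corepressor used by REV-ERB receptors, by -0.43 and -0.55. Gsk3b (-0.50), Usp2 (-0.79) and Fbxl21 (0.86) were the others of smallest p in Con, and Timeless (-0.62) was among them in DKO.

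Of 20 measured output genes 3 were higher and 5 lower in Con basal forebrain, and 4 and 5 in DKO. For the counts of this paragraph, the shares of all genes were again 18.4% higher and 30.0% lower in Con, and 18.5% and 19.8% in DKO. Besides Prok2, Lgals3bp (0.93 in Con, 0.57 in DKO) and Mtss1 (0.50 and 0.62) were higher in both genotypes and Prokr2, a receptor of the PROK2 peptide, in DKO (0.88). Klf10 (-1.57 in each), Klf9 (-0.53 and -0.64) and Cys1 (-0.58 and -0.60) were lower in both genotypes. Nampt (-0.34) and Coq10b (-0.25) were lower in Con, and Wee1 (-0.41) and Rbm3 (limma adjusted p = 0.00625) in DKO. Of 19 immediate early genes 9 were lower in Con basal forebrain and 8 in DKO, with 0 higher. Egr3 (-1.45 and -1.41), Nr4a2 (-1.64 and -2.61), Ier2 (-1.41 and -1.65) and Dusp6 (-1.36 and -1.22) passed in both genotypes. So did Dusp1 (-0.99 and -1.32), Egr1 (-1.18 and -0.94), Junb (-0.71 and -1.08) and Arc (-1.23 and -1.72), while Nr4a3 (-0.83) passed in Con alone. Of 15 glucocorticoid-responsive genes Zbtb16 (-1.76 and -2.12) and Map3k6 (-0.74 and -0.94) were lower in both and Arl4d (-0.84) in Con.

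A last question was how the mice varied, since each gave the clock in both regions. For Per1 a mouse that was high in basal forebrain was high in cortex, with Pearson r = 0.99 (exact permutation p = 0.00139, two-sided, adjusted p = 0.681 over 23789 genes) and Spearman rho = 1.00 (exact permutation p = 0.00278). Only 6 of the 23789 genes, Per1 included, had an r this high. Without the 2 mice farthest from the median r was 0.98, and with genotype means removed it was 0.99. Per2 had r = 0.85 (rho = 0.94, exact permutation p = 0.00278 for r, adjusted p = 0.681 over all genes), and 0.97 without the 2 farthest mice.

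After adjustment over all genes 0 of 10 members and 0 of 23789 genes (0%) passed. With 720 pairings an exact permutation p cannot fall below 0.00139, so a pass would have needed many genes at that floor. These counts of 0 therefore cannot decide whether a single gene was related between the regions. Among the 10 relations 4 had an exact permutation p under 0.05 for r, where 6.02% of all genes had. The others were Cry1 and Nr1d2, the latter with r = 0.78 (rho = 0.83, exact permutation p = 0.0472 for r, adjusted p = 0.800), while Arntl had r = 0.83 (rho = 0.77, exact permutation p = 0.0667 for r, adjusted p = 0.834) and Dbp r = 0.72 (rho = 0.60, exact permutation p = 0.107 for r, adjusted p = 0.853). The Arntl relation rests on Con mouse 3, without which r was 0.21. By its brightest probe Cry1 ran in opposite directions in the 2 regions, r = -0.95 (rho = -0.94, exact permutation p = 0.00278 for r, adjusted p = 0.681). With quantile-normalized values r was -0.68, and the basal forebrain range of this probe was only 0.25. The other Cry1 probe did not order the mice this way. Con mouse 2 read -3.59 there in basal forebrain and was lowest in cortex (-3.85), whereas DKO mouse 3 read -3.61 and was highest in cortex (-3.19). Cortex arrays of these mice lay on 2 slides. Over the 4 mice whose cortex was on slide 2, too few for a test, r was 0.99 for Per1, 0.93 for Per2, -0.96 for Cry1 and 0.96 for Nr1d2.

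**Figure D4:**
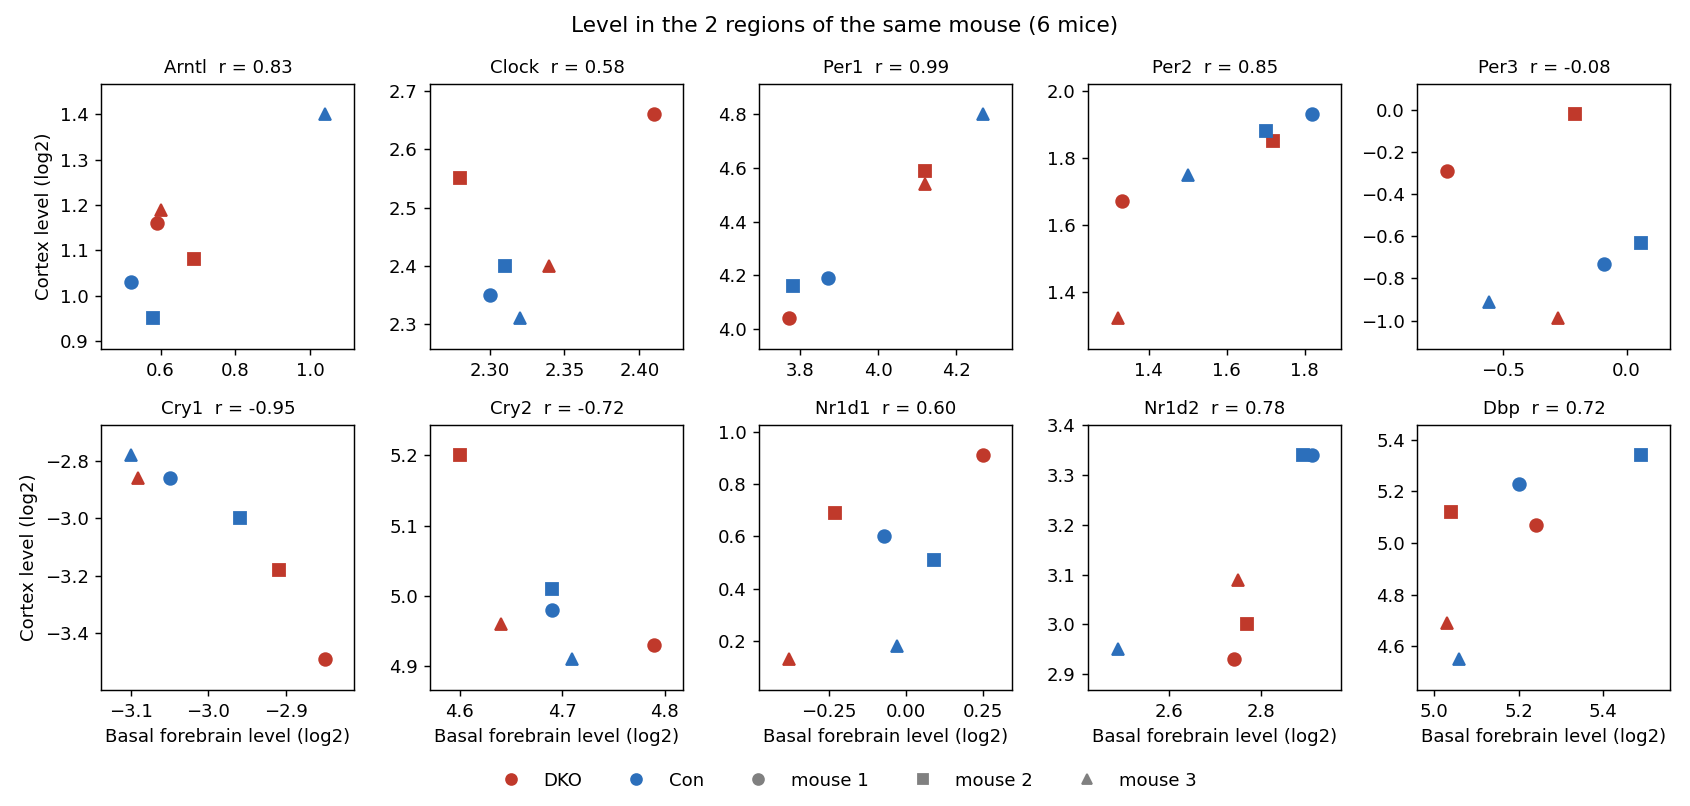
Cortex level (vertical axis, log2) against basal forebrain level (horizontal axis, log2) of the same mouse for each clock gene, 6 mice, red for DKO and blue for Con, symbols for the mouse number, Pearson r in each title. Per1 lines the 6 mice up (r = 0.99), Per2 follows (r = 0.85), and Cry1, by its brightest probe, runs the other way (r = -0.95).

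Con mouse 3 deviated from the other mice in several members. How many of all genes deviated as far in this mouse was not counted. Its basal forebrain array and that of Con mouse 2 had the lowest correlation within a group over all probes, 0.985. Relative to the mean of the 6 mice of a region, its Arntl was 0.37 and 0.27 higher in basal forebrain and cortex, and its Per1 0.28 and 0.41 higher. Its Nr1d2 deviated by -0.27 and -0.16, its Dbp by -0.11 and -0.45 and its Per3 by -0.26 and -0.32. Of 2 further genes, chosen after their values were seen, Ciart, an E-box target that represses the ARNTL pair, was lowest in this mouse in both regions (-1.44 and -0.68). Nfil3, a repressor that competes with Dbp for D-box sequences, was highest in it (1.98 and 1.87, the other 10 arrays lying between 0.35 and 1.61). DKO mouse 3 shared the low Dbp (-0.15 and -0.31) and had the lowest Per2 (-0.24 and -0.41) and Nr1d1 (-0.31 and -0.38), with its Arntl near the mean (-0.07 and 0.06).

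**Figure D5:**
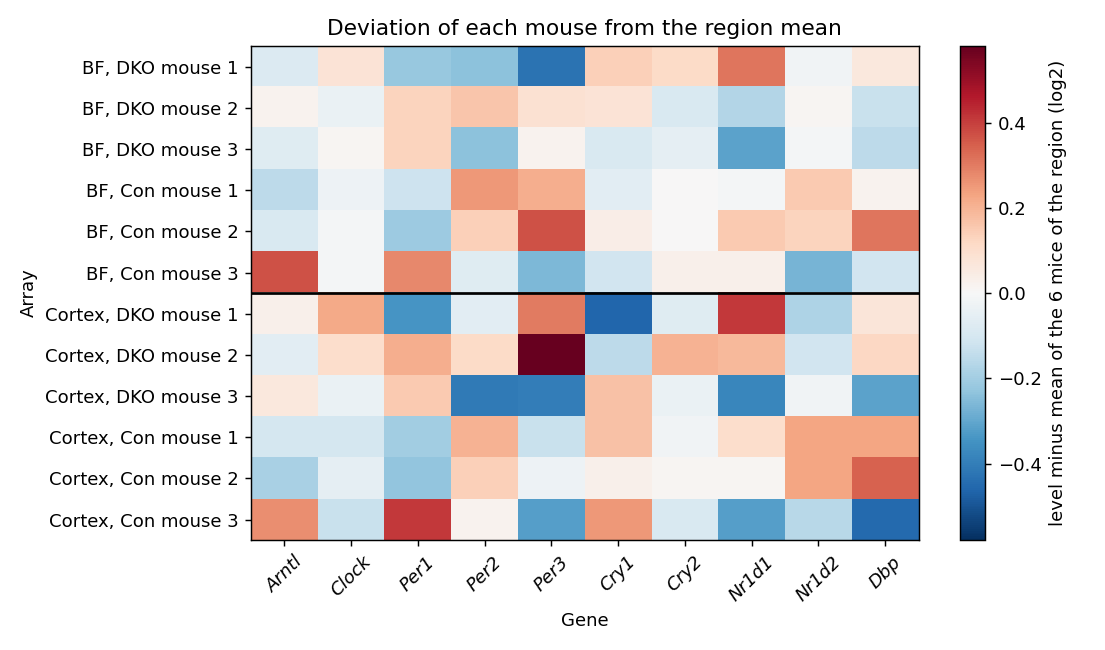
Level of each clock gene minus the mean of the 6 mice of its region (colour, log2), for each array (rows, basal forebrain above the line and cortex below). Con mouse 3 is high in Arntl (0.37 and 0.27) and Per1 (0.28 and 0.41) and low in Nr1d2 (-0.27 and -0.16) and Dbp (-0.11 and -0.45) in both regions.

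Set against Arntl over the 6 mice, each the mean of its regions, Dbp fell in the reverse order (rho = -1, exact permutation p = 0.00278, and r = -0.80, exact permutation p = 0.0181). Nr1d2 had r = -0.85 (rho = -0.71, exact permutation p = 0.0167 for r), and Per1 had r = 0.78 (rho = 0.77, exact permutation p = 0.0306 for r). After adjustment over 23788 genes these exact permutation p stood at 0.676 for r, and that of the Dbp rho at 0.816. Of 9 members 0 passed, as did 0 of all genes (0%). The order of Dbp rests on small gaps in Arntl. Its mean of the regions was 0.88, 0.88 and 0.90 in DKO mice 1, 2 and 3, and 0.78 and 0.76 in Con mice 1 and 2. An unadjusted p under 0.05 was found for 3 of 9 members and 7.10% of all genes. Without the 2 mice farthest from the median of Arntl, Con mice 2 and 3, r was -0.71 for Dbp, -0.91 for Nr1d2 and 0.48 for Per1. Over the 4 mice with cortex on slide 2 it was -0.80, -0.97 and 0.94. Per2 (r = -0.30), Per3 (r = -0.65), Nr1d1 (r = -0.36), Cry2 (r = -0.34), Cry1 (r = 0.22) and Clock (r = -0.22) had an exact permutation p of at least 0.147.

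Genes that followed Arntl most closely were sought over the 12 arrays after each region's mean was removed, among 14800 named genes well above background throughout. The arrays share mice and slides, so the values describe these arrays. The highest were Akap10 (r = 0.96), Jmjd6 (0.95), Klhl21 (0.93), Rbm4 (0.93) and Rnpep (0.93), and Maco1 (-0.94) and Zfp451 (-0.93) were among the lowest. Some clock genes lay toward the ends for Arntl: Ciart was eighth from the bottom (r = -0.90), Nr1d2 had r = -0.81 and Nfil3 r = 0.86. Others lay nearer the middle, such as Cry1 (0.03), Clock (-0.15), Cry2 (-0.23), Nr1d1 (-0.27), Per2 (-0.29), Rora (0.05) and Hlf (0.01). How many clock genes lay as far out as the first 3 was not counted. For Dbp the highest were Sycp3 (0.93), Zfp277 (0.92), Mpped2 (0.91), Cipc (0.90), which encodes an inhibitor of CLOCK, and Gmeb1 (0.90), and the lowest Dnd1 (-0.91), Rhbdf2 (-0.90) and Trim16 (-0.90). Ciart had r = 0.84 with Dbp and Nr1d1 had 0.70, while Per1 had -0.78 and Nfil3 -0.74. Other clock genes lay between, such as Clock (0.27) and Cry1 (-0.26).

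The promoters of the members were read for the sequences that clock factors bind. RefSeq entries (GRCm38.p6) were matched for 9 of 10 members, Per2 being the one without. Both strands of the 250 bases before the most upstream start were searched for the E-box CACGTG, its variant CACGTT, which reads AACGTG on the other strand, the D-boxes TTATGTAA and TTACGTAA, and the ROR response element, which REV-ERB receptors also bind. CACGTG, which reads the same on both strands, was in Per1 and Cry1 and in 6.02% of 32851 promoters, and CACGTT was in Cry1, Cry2 and Nr1d1 and in 3.85%. A D-box was in Per3, in 2 copies, and in 0.931% of promoters. The searched forms of the ROR response element were in 0 of 9 of these windows and in 0.35% of promoters. Of 24 matched genes among the other clock genes 4 held CACGTG, Ciart with 3 copies. The windows of the members and of Ciart that hold a match are shown with 20 bases on either side, motifs in capitals and each read 5′ to 3′ on the strand of its gene. They show which members carry these letters next to their start, and a match is a description, not a bound site.
Per1 (chr11:69098763-69098808, plus strand): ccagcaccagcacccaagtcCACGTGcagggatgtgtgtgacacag
Cry1 (chr10:85185089-85185153, minus strand): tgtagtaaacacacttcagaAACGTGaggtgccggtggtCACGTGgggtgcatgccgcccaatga
Cry2 (chr2:92434210-92434255, minus strand): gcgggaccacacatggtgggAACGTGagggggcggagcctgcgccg
Nr1d1 (chr11:98775380-98775425, minus strand): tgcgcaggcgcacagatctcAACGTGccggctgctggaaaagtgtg
Per3 (chr4:151044796-151044890, minus strand): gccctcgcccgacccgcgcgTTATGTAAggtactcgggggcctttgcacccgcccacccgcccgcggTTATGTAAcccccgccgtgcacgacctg
Ciart (chr3:95882247-95882364, minus strand): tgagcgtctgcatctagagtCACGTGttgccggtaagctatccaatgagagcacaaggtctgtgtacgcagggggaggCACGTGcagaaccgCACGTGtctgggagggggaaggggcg
In Per1 the E-box lies 166 to 161 bases before the start, in Cry1 the E-box lies 60 to 55 and its variant 79 to 74 bases before it, and in Nr1d1 the variant lies 28 to 23 bases before it. The 2 D-boxes of Per3 lie 205 to 198 and 158 to 151 bases before the start. Of the members with an E-box form, by the mean of the regions, Per1 and Cry1 were highest in Con mouse 3, Cry2 in DKO mouse 2 and Nr1d1 in DKO mouse 1. A link between these letters and the levels was not tested.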

How the data were processed

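RNA of 12 samples was measured on 1-colour Agilent arrays. Per the file headers, the authors' processed intensity is the background-subtracted and detrended signal from Agilent Feature Extraction 10.7.1.1, not scaled between arrays. The authors' deposited normalized log2 values share 1 distribution over the 12 arrays; no source names the method, and they entered only as an alternative. A further 12 per-sample flag columns stayed unused. Probe positions are mm9, from the files.

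Each array's 75th percentile was subtracted from its log2 intensities. The brightest probe stood for a gene, and a gene was tested if any group had it well above background throughout. Symbols were updated through RefSeq for 32972 probes, and 23596 kept the file's name. R 4.3.3 with limma 3.58.1 (lmFit, eBayes with trend=TRUE) was used, with Benjamini-Hochberg adjustment over all genes of a comparison and a threshold of 0.05. Each region was fitted on its 6 arrays, mouse means for both regions together, and all 12 arrays for the region comparisons and the interaction. Correlations over 6 mice used exact permutation of the 720 pairings and adjustment over all genes; the adjustment over the members alone that had been planned is not given. Arrays were checked for pairing: the animal tag in the labels pairs the regions of a mouse, whereas DKO and Con mice share only a number. Scripts were tested on simulated data. Replicates are separate mice by the labels, and their number limits precision.

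Always named were the 10 members, Psen2, of each of the 4 other gene lists up to 8 passing genes of smallest p per comparison (or up to 3 where none passed), and the 5 highest and 3 lowest correlations with Arntl and Dbp; some of these genes are not reported here. Ciart and Nfil3 in single mice were chosen after their values were seen, and their correlations with Arntl and Dbp also fall outside this rule. Members and lists were chosen with earlier results of these data known. Alternatives covered background correction, normalization, the filter, probe averaging, slide, blocks and each array or mouse left out.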

Additional observations from a re-analysis of the deposited data

How the results depend on the processing

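The genotype result for the members, 0 of 10 called, held in basal forebrain, over both regions and for the interaction under every alternative run, including the replicate number as a block. In cortex the count ranged from 0 to 3 when 1 array was left out, and was 2 without DKO mice 1 and 3 together (Per3 and Cry2), where the lone DKO array, on slide 1, is assumed to vary like the Con arrays. Region calls were less stable. In Con 3 members were called; quantile normalization gave 1, the authors' normalized values 1, and the mouse as a replicate block 6, and leaving out 1 array gave 2 to 5, the 5 without basal forebrain of Con mouse 3. In DKO 4 were called; the mean of all probes gave 2, leaving out DKO mice 1 and 3 together gave 2, and leaving out 1 array gave 2 to 4, the 2 (Arntl and Cry2) without basal forebrain of DKO mouse 2 or 3 or cortex of DKO mouse 1 or 2. Under the block DKO had 5. The mean of all probes reversed Cry2 in Con (0.60) and in DKO (0.65) and Clock in DKO (0.05). The cause was not tested, beyond the probes' own values. In cortex the replicate number as a block gave 0 called members and 2 called genes. Same-numbered DKO and Con mice deviated together with r of 0.04, 0.36 and -0.42 in basal forebrain and 0.00, 0.20 and 0.25 in cortex. No relation over mice passed under any normalization or with all probes averaged. Dim probes limit what can be said: 2 of the 25 probes, a Clock and a Per1 probe, were well above background on 9 of 12 arrays.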
